A study of Mus musculus with 10 samples.

Results

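The 8 genes described here were Mcpt1, Mcpt2, Mcpt4, Mcpt8, Cma1, Cpa3, Tpsb2 and Kit, 7 granule proteases of mast cells and basophils together with the growth factor receptor that mast cells depend on. They were selected by gene name from the 21959 genes of the expression table, and the list was chosen by what was already known of them in these tumors, since Mcpt2 had a high fold change between the groups. Differences of these 8 genes between the groups are therefore given as values without a test. All 8 were among the 13517 genes that carried enough reads to be fitted.

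The tumors formed from 4T1, a single cell line of mouse mammary carcinoma that stands for triple-negative breast cancer, after injection under the abdominal skin of BALB/c mice that were female and 5-6 weeks old. Mice of the exercise group (E, n = 5) ran voluntarily for 21 days, and mice of the non-exercise group (NE, n = 5) were kept for the same time under ordinary housing without an intervention. Messenger RNA of whole tumor tissue was sequenced, 1 library per mouse, so that tumor cells and all other cells of the tissue contributed to each value. Libraries held 15045613 to 20646763 counted reads in E and 18706032 to 23092251 in NE. Tumors are named E1 to E5 and NE1 to NE5. Levels are in FPKM, fragments scaled to gene length and to the depth of the library. They can be compared between genes only as far as the gene lengths of the deposited table hold, as given below.

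Mast cells store proteases in their secretory granules, bound to proteoglycans, and release them when they are activated, for example through the IgE receptor. Chymases cut after aromatic residues, tryptases cut after lysine and arginine, and carboxypeptidase A removes residues from the end of a peptide. In mice, mast cells of connective tissue such as skin are known for Mcpt4, Cma1, Tpsb2 and Cpa3, whereas mast cells of mucosa such as gut are known for Mcpt1 and Mcpt2. Mcpt8 is known as a protease of basophils, a circulating granulocyte that carries the same IgE receptor.

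The chymases and Mcpt8 lie together on chromosome 14, Tpsb2 lies on chromosome 17, Cpa3 on chromosome 3 and Kit on chromosome 5. In the GRCm38 build the positions are chr14:55941451-55944675 for Cma1 on the minus strand, chr14:56017971-56020384 for Mcpt1 and chr14:56042041-56044642 for Mcpt2 on the plus strand, and chr14:56059629-56062313 for Mcpt4 and chr14:56082166-56085273 for Mcpt8 on the minus strand. Tpsb2 is at chr17:25366305-25369098 on the plus strand, Cpa3 at chr3:20215620-20242181 on the minus strand and Kit at chr5:75574916-75656722 on the plus strand. The chymases and Mcpt8 have 5 exons each, Tpsb2 has 6, Cpa3 has 11 and Kit has 21.

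Because these proteases are relatives that arose by duplication, the same stretch of coding sequence is shown for the 6 serine proteases, to let a reader see how alike they are. Each is 60 coding bases of the last exon in the GENCODE transcript, read 5′ to 3′ on the strand of the gene, and the capitals mark the codons around the serine of the active site.
Mcpt1, chr14:56019996-56020055, plus strand: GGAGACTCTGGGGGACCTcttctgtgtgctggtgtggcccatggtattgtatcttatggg
Mcpt2, chr14:56044292-56044351, plus strand: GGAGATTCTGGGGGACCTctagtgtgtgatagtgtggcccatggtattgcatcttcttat
Mcpt4, chr14:56060041-56060100, minus strand: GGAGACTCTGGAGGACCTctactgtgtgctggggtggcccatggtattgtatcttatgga
Cma1, chr14:55941738-55941797, minus strand: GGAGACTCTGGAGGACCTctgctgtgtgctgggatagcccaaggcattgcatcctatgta
Mcpt8, chr14:56082341-56082400, minus strand: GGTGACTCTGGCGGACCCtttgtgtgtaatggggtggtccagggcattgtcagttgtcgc
Tpsb2, chr17:25367682-25367741, plus strand: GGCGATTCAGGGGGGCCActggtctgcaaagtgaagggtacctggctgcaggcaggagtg

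Within these 60 bases Mcpt1 differed from Mcpt4 at 4 positions, Mcpt4 from Cma1 at 8 and Mcpt1 from Mcpt2 at 10. Mcpt8 differed from the 4 chymases at 17 to 21 positions, and Tpsb2 from the other 5 genes at 33 to 35. Over the whole coding sequence, Mcpt1 was 86.4% identical to Mcpt4 and 81.0% identical to Mcpt2, and Mcpt4 was 66.7% identical to Cma1. Despite this likeness, Mcpt1, Mcpt2, Mcpt8, Cpa3, Tpsb2 and Kit shared no stretch of 50 bases with any other gene's transcripts. Mcpt4 shared 58 of its 1059 such stretches (5.48%) with Cma2, a gene that had at most 2 reads in any tumor, and Cma1 shared 56 of 1025 (5.46%) with a predicted gene, Gm48934.

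Among the connective tissue mast cell proteases, Mcpt4 was the most abundant of the 8 genes, with a median of 39.3 FPKM over the 10 tumors. Mcpt4 encodes the chymase held to be the nearest counterpart of human chymase in activity. Its levels were 31.2, 53.3, 29.5, 51.8 and 52.6 FPKM in E1 to E5 and 4.06, 21.9, 20.7, 61.3 and 47.5 FPKM in NE1 to NE5. The lowest and the highest tumor both belonged to NE, and the E values lay wholly inside the NE range. Exercised tumors averaged 43.7 ± 12.2 FPKM (SD, n = 5) and non-exercised tumors 31.1 ± 22.9 FPKM (SD, n = 5), a log2 fold change of E over NE of 0.43 with a standard error of 0.551. In bulk tumor RNA, more cells of a type and more RNA per cell cannot be told apart, and that holds for every gene below.

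Cma1, the α-chymase gene whose product is known to need Cpa3 for storage in the granule, repeated this profile. It had 27.1, 40.7, 24.1, 43.2 and 41.7 FPKM in E1 to E5 and 4.41, 18.7, 16.8, 54.8 and 37.9 FPKM in NE1 to NE5. Again NE1 was lowest, NE4 highest, and the 5 exercised tumors fell between them. The log2 fold change was 0.36 with a standard error of 0.523.

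Tpsb2 encodes the tryptase that forms heparin-bound tetramers in the granule. Tpsb2 levels were 16.9, 29.6, 16.4, 27.9 and 30.8 FPKM in E1 to E5 and 2.55, 12.2, 11.0, 34.8 and 23.2 FPKM in NE1 to NE5. The order of the tumors followed that of Mcpt4 closely, with NE1 at the bottom and NE4 at the top. Its log2 fold change was 0.48 with a standard error of 0.536.

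Cpa3 encodes mast cell carboxypeptidase A, a zinc enzyme and the only protease of the list that is not a serine protease. Cpa3 levels were 9.61, 18.8, 13.9, 25.1 and 20.9 FPKM in E1 to E5 and 1.48, 11.4, 13.3, 26.0 and 19.1 FPKM in NE1 to NE5. The groups overlapped over almost their whole ranges, and NE1 was again far below the rest. The log2 fold change was 0.26 with a standard error of 0.556, and it was -0.028 when NE1 was left out, so the sign of the Cpa3 difference rested on that tumor.

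Mcpt2, one of the pair of mucosal mast cell proteases, had the largest difference between the groups of the 8 genes. Its levels were 10.7, 24.5, 21.2, 38.5 and 77.8 FPKM in E1 to E5 and 3.14, 13.5, 15.9, 8.58 and 9.65 FPKM in NE1 to NE5. E2 to E5 were above all non-exercised tumors, while E1 was below NE2 and NE3, so that the groups overlapped by this 1 exercised tumor, and E was higher in 23 of the 25 pairings of an E with an NE tumor. The mean was 34.5 ± 26.1 FPKM in E and 10.2 ± 4.91 FPKM in NE (SD, n = 5 each), a ratio of 3.40. The log2 fold change was 1.72 with a standard error of 0.541, and it was 1.19 without E5 and 1.97 without E1. Only 13 of the 13517 fitted genes (0.0962%) had a log2 fold change at or above that of Mcpt2, a rank that the choice of this gene presupposes.

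Mcpt1, the other mucosal protease, known as a blood marker of mast cell activation in the gut, was less abundant. It had 1.86, 3.17, 3.92, 4.79 and 12.5 FPKM in E1 to E5 and 0.683, 5.32, 5.60, 2.15 and 2.54 FPKM in NE1 to NE5, from 16 to 191 reads per tumor. E5 stood apart above all others, and 2 non-exercised tumors, NE2 and NE3, came next. The log2 fold change was 0.65 with a standard error of 0.604, and 0.051 without E5, so most of the Mcpt1 difference lay in that tumor.

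Mcpt8, the basophil protease, was low and had a narrower range than the mast cell proteases. Its levels were 2.23, 2.90, 2.67, 4.05 and 1.53 FPKM in E1 to E5 and 3.21, 2.09, 3.09, 2.84 and 1.87 FPKM in NE1 to NE5, from 23 to 75 reads per tumor. The highest and lowest tumors, E4 and E5, were both exercised, and NE1, the lowest tumor for the other 7 genes, was second highest here. The mean was 2.68 ± 0.929 FPKM in E and 2.62 ± 0.603 FPKM in NE (SD, n = 5 each), and the log2 fold change was 0.0029 with a standard error of 0.268, between -0.19 without E4 and 0.15 without E5.

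Kit, the receptor for stem cell factor that mast cells need for survival and that other cells carry as well, had the lowest level by the gene lengths of the table and a narrow range. It had 1.68, 1.98, 1.96, 2.21 and 3.09 FPKM in E1 to E5 and 1.44, 1.61, 1.86, 2.29 and 1.91 FPKM in NE1 to NE5. E5 was highest, NE1 lowest and the rest mixed. The log2 fold change was 0.22 with a standard error of 0.182.

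**Figure D1:**
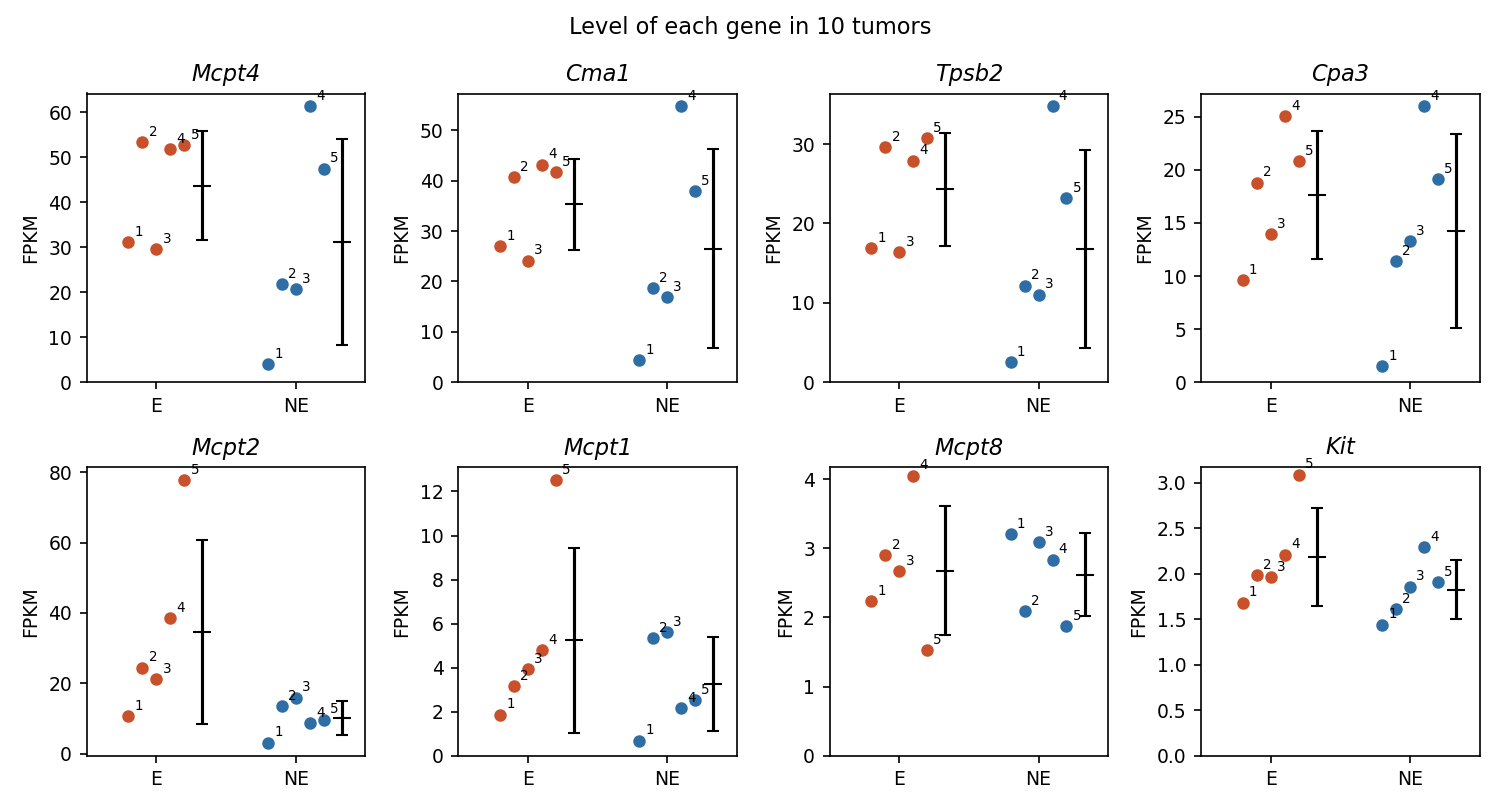
FPKM of each gene (vertical axes, each starting near 0) in the 5 exercised (E, red) and 5 non-exercised (NE, blue) tumors, numbered by replicate, with the group mean and SD as bars. For Mcpt4, Cma1, Tpsb2 and Cpa3 the NE tumors span the whole range from NE1 to NE4; for Mcpt2, E5 at 77.8 FPKM tops the exercised tumors and only E1 lies among the NE values.

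Called genes were those with a 2-fold or larger difference and a false discovery rate no higher than 0.05 (edgeR, quasi-likelihood, adjusted after Benjamini-Hochberg). None of the 8 genes was called between E and NE and neither was any other, 0% of those fitted. With the unadjusted p at or below 0.05, 657 genes passed, 2.57% of all fitted genes higher in E and 2.29% lower. DESeq2 and limma-trend also called no gene and had 846 of 17925 and 644 of 13517 genes at that p. All 8 genes had overlapping groups, where 0.695% of fitted genes did not overlap. All 8 fitted differences were above 0, against 46.0% of fitted genes, but Mcpt8 was within 0.0029 of 0 and turned negative with the size factors of DESeq2 (-0.0024). These comparisons include the contrast by which the list was chosen and carry no weight of their own.

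The choice of genes rested on the group difference of Mcpt2. For that gene the span and the r over all tumors therefore hold the difference it was chosen for. Relations of Mcpt2 with Mcpt1, Mcpt4 and Kit are tested below on deviations from the group means. Its other relations and its level comparisons hold the group difference. The 6 mast cell proteases were among the more variable genes of the table. The within-group SD of log2 CPM (reads scaled to library depth) was 0.94 for Mcpt1, 0.95 for Mcpt2, 1.01 for Cma1, 1.04 for Tpsb2, 1.10 for Mcpt4 and 1.15 for Cpa3, and 96.3% to 97.4% of fitted genes had a lower SD, where the median gene had 0.18. Kit (0.30) and Mcpt8 (0.36) were steadier than these 6, but 72.1% and 78.9% of fitted genes had a lower SD. For Mcpt8 the counting of few reads alone gives an SD of 0.21. From the lowest to the highest tumor, Mcpt2 spanned 24.8-fold, Mcpt1 18.3-fold, Cpa3 17.5-fold and Mcpt4 15.1-fold, but Mcpt8 2.65-fold and Kit 2.15-fold. NE1 was the lowest tumor for 7 of the 8 genes, NE4 the highest for 4 and E5 the highest for 3.

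By level the genes fell into an abundant set, in the order Mcpt4, Cma1, Tpsb2, Cpa3 and Mcpt2 with median FPKM of 39.3, 32.5, 20.0, 16.4 and 14.7, and a low set of Mcpt1, Mcpt8 and Kit with 3.55, 2.76 and 1.93. Neighbors in this order were compared within tumors by an exact paired permutation test (two-sided, n = 10, 7 pairs). Mcpt4 exceeded Cma1 by 0.24 ± 0.141 on the log2 scale (SD) in 9 of 10 tumors (exact p = 0.0039, adjusted p = 0.0091), Cma1 exceeded Tpsb2 by 0.61 ± 0.103 in 10 of 10 (exact p = 0.0020, adjusted p = 0.0068), and Tpsb2 exceeded Cpa3 by 0.37 ± 0.334 in 9 of 10 (exact p = 0.012, adjusted p = 0.021). Mcpt2, its group difference included, exceeded Mcpt1 by 2.21 ± 0.563 in 10 of 10 tumors (exact p = 0.0020, adjusted p = 0.0068).

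Cpa3 and Mcpt2 had no settled order. Mcpt2 was above Cpa3 in 8 of 10 tumors, in all 5 exercised ones among them, but in NE4 and NE5 Cpa3 was above Mcpt2, and the mean log2 difference of Cpa3 minus Mcpt2 was -0.26 ± 0.971 (exact p = 0.41, adjusted p = 0.41). Mcpt1 and Mcpt8 differed by 0.37 ± 1.28 (exact p = 0.40, adjusted p = 0.41) and Mcpt8 and Kit by 0.37 ± 0.563 (exact p = 0.074, adjusted p = 0.10), so neither pair was separated beyond its spread. These levels rest on the gene lengths of the deposited table, which for Kit (8911 bases) and Tpsb2 (1594 bases) are longer than their principal GENCODE transcripts (5214 and 1118 bases), as for Mcpt8 (998 and 836 bases). With the transcript lengths, chosen as an alternative after the values had been seen, the medians of Kit and Mcpt8 were 3.31 and 3.29 FPKM, so Kit was no longer the lowest, and Cma1 exceeded Tpsb2 by 0.12 ± 0.106 in 8 of 10 tumors (exact p = 0.0098, adjusted p = 0.017).

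Across the 10 tumors Mcpt4, Cma1, Tpsb2 and Cpa3 rose and fell together, and the ratios to Mcpt4 varied far less than Mcpt4 itself. The ratio of Tpsb2 to Mcpt4 FPKM stayed between 0.489 and 0.628, that of Cma1 to Mcpt4 between 0.764 and 1.08 and that of Cpa3 to Mcpt4 between 0.308 and 0.642, while Mcpt4 itself varied 15.1-fold. Of the 28 pairs among the 8 genes, 12 were correlated at an adjusted p of at most 0.05 (Pearson, permutation) and 11 of these also by Spearman's rank. Of the 12, the pairs of Mcpt2 with Mcpt1 and with Kit hold the group difference of Mcpt2. Mcpt4 and Tpsb2 had r = 0.997 (permutation p = 2.0e-05, adjusted p = 0.00028) and rho = 0.988 (adjusted permutation p = 0.00084), and r = 0.990 without the 2 tumors farthest from the median of Mcpt4. Mcpt4 and Cma1 had r = 0.997 (permutation p = 2.0e-05, adjusted p = 0.00028), rho = 0.952 (adjusted permutation p = 0.0012) and r = 0.990 without 2 tumors. Cpa3 followed with r of 0.956 to 0.966 to the other 3 genes, and without the 2 tumors farthest from the median with 0.890 to Mcpt4 and to Cma1 and 0.793 to Tpsb2. These 6 pairs passed under all 15 alternatives of scaling, unit and 1 left-out tumor, where the lowest r was 0.846.

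**Figure D2:**
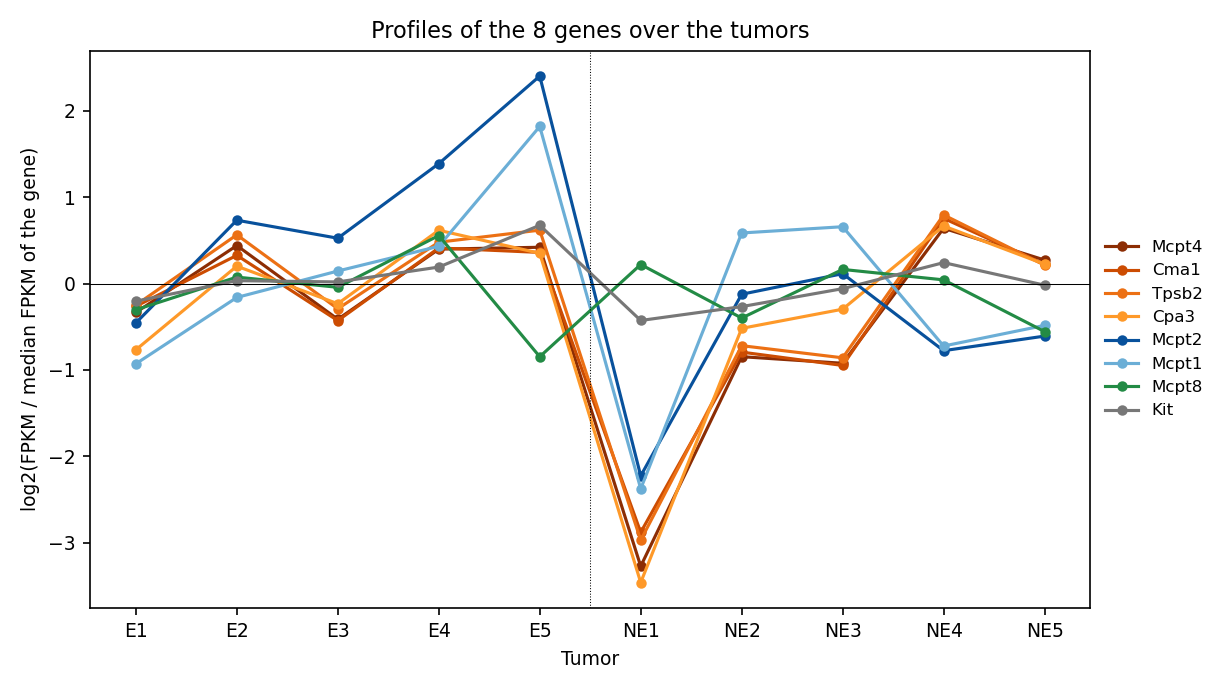
Level of each gene in each tumor relative to its own median, as log2(FPKM / median FPKM), with exercised tumors left of the dotted line. The orange lines of Mcpt4, Cma1 and Tpsb2 lie close to each other, and that of Cpa3 follows them less closely. The blue lines of Mcpt2 and Mcpt1 share a peak in E5 and a low in NE1, and the green line of Mcpt8 runs apart.

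Mcpt1 and Mcpt2 varied together within the groups. Their deviations from the group means had r = 0.965 (permutation p = 2.0e-05, adjusted p = 0.00019), rho = 0.964 (permutation p = 5.0e-05, adjusted p = 0.00065) and r = 0.917 without E5 and NE1. Over all tumors, with the group difference included, r was 0.890 and 0.566 without NE1 and E5, and the ratio of Mcpt1 to Mcpt2 FPKM moved between 0.124 in E4 and 0.394 in NE2. The relation of Mcpt2 to the connective tissue proteases depended on single tumors. The deviations of Mcpt2 and Mcpt4 had r = 0.552 (permutation p = 0.098, adjusted p = 0.16), rho = 0.418 (permutation p = 0.23, adjusted p = 0.36) and r = 0.244 without NE1 and E5, and over all tumors r was 0.644. Without NE4, Mcpt2 had r of 0.779 with Mcpt4, 0.775 with Cma1, 0.808 with Cpa3 and 0.810 with Tpsb2 over all other tumors. Without NE1 the r of Mcpt2 with Mcpt4 was 0.232. These values hold the group difference of Mcpt2, and deviations without NE4 were not tested. Whether Mcpt2 stands apart from these 4 genes is therefore not settled by them. Mcpt1 and Mcpt4, the closest relatives in sequence, had r = 0.522 (permutation p = 0.13, adjusted p = 0.19), rho = 0.030 (adjusted permutation p = 0.97) and r = -0.547 without NE1 and E5. The ratio of Mcpt2 to Mcpt4 FPKM differed 10.6-fold between tumors, from 0.140 in NE4 to 1.48 in E5, and was 0.344 to 1.48 in E and 0.140 to 0.773 in NE.

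**Figure D3:**
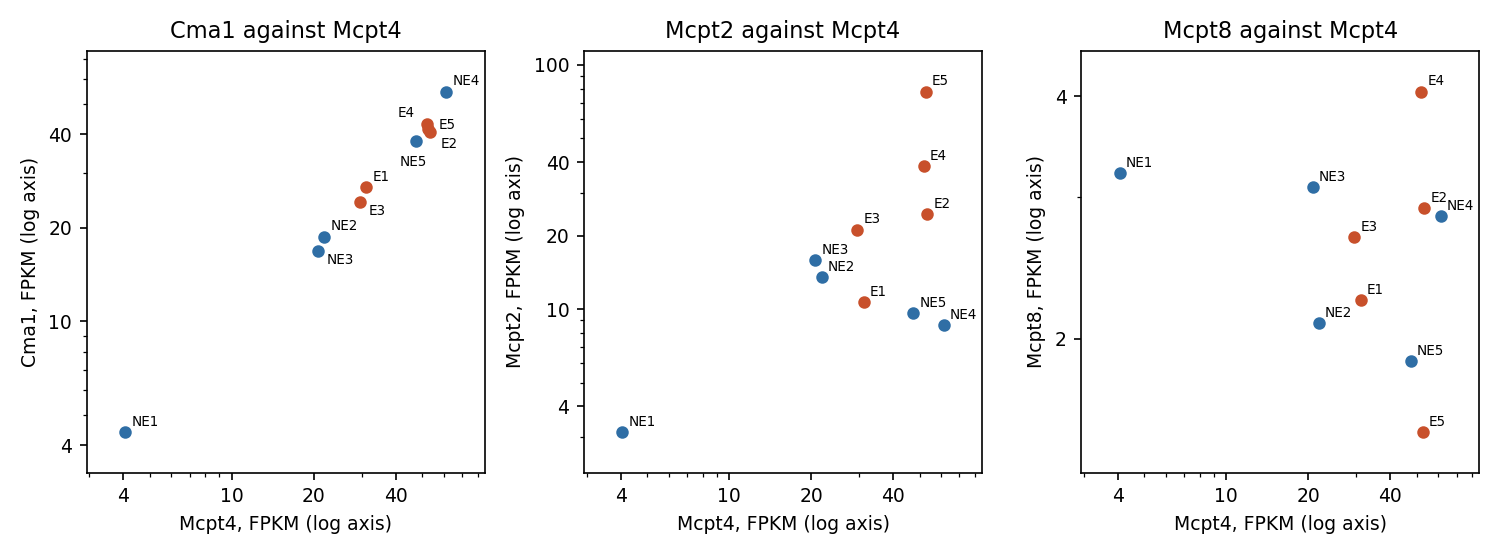
FPKM of Cma1, Mcpt2 and Mcpt8 (vertical, log axes) against FPKM of Mcpt4 (horizontal, log axes) in 10 tumors, exercised in red and non-exercised in blue. Cma1 falls on a line with Mcpt4 (r = 0.997); among tumors with high Mcpt4, Mcpt2 ranges from 8.58 FPKM in NE4 to 77.8 FPKM in E5; Mcpt8 shows no line (r = -0.20).

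Kit went with the mast cell proteases less tightly. Its r was 0.745 with Mcpt4 (permutation p = 0.018, adjusted p = 0.044, rho = 0.758, adjusted permutation p = 0.038), 0.748 with Cma1, 0.745 with Cpa3 and 0.772 with Tpsb2. The deviations of Kit and Mcpt2 had r = 0.754 (permutation p = 0.012, adjusted p = 0.042), rho = 0.648 (permutation p = 0.049, adjusted p = 0.11) and r = 0.468 without NE1 and E5. The permutation did not allow for the group means taken out, so these p-values can be too small. An adjusted p of 0.042 is therefore not held as a pass. Of 15 alternatives these Kit pairs kept an adjusted p of at most 0.05 in 5 to 9, so these pairs depend on which tumors and which scaling are used. Mcpt8 was correlated with none of the other 7 genes, with r from -0.37 to -0.12 and a smallest adjusted permutation p of 0.36.

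**Figure D4:**
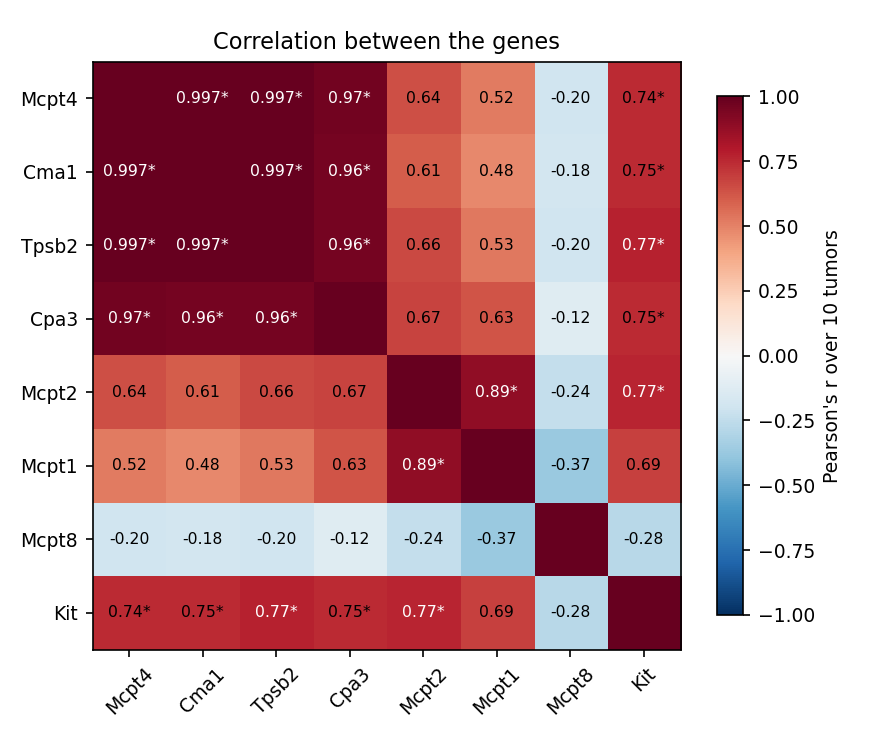
Pearson's r of log2 CPM between the 8 genes over 10 tumors, from -1 (blue) to 1 (red), with an asterisk at an adjusted permutation p of at most 0.05, values of Mcpt2 including its group difference. The block of Mcpt4, Cma1, Tpsb2 and Cpa3 has r of 0.956 to 0.997, Mcpt1 and Mcpt2 share 0.890, and the row of Mcpt8 is negative throughout.

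The stretch before each gene is shown for the genes whose profiles met or parted in this way, because Mcpt1 and Mcpt4 resemble each other there too. The promoter table used here, taken from RefSeq, matched all of the 8 genes but Mcpt2 and Tpsb2, 6 in all. Each sequence is the 250 bases before the RefSeq start in GRCm38.p6, read 5′ to 3′ on the strand of the gene, and the capitals mark GATAA or, read on the opposite strand, TTATC, the letters at the core of sites of GATA transcription factors.
Mcpt1, chr14:56017714-56017963, plus strand: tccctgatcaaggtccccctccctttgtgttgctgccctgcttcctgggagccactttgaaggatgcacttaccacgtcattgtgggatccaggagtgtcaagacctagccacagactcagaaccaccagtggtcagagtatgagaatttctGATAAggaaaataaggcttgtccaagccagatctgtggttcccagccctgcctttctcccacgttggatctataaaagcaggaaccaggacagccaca
Mcpt4, chr14:56062311-56062560, minus strand: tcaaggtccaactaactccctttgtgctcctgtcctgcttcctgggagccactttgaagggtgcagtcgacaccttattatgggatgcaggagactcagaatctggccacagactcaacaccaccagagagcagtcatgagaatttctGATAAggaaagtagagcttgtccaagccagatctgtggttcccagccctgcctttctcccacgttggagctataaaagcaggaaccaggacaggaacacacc
Cma1, chr14:55944676-55944925, minus strand: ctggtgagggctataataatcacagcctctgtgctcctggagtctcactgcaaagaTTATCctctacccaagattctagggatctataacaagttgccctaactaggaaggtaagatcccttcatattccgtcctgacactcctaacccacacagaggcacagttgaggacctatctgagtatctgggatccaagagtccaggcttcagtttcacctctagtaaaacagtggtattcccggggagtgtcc
Cpa3, chr3:20242182-20242431, minus strand: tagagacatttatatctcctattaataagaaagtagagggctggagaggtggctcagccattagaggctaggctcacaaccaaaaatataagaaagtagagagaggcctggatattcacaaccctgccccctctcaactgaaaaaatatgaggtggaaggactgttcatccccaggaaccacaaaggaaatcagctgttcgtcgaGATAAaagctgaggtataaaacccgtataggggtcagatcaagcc
Mcpt8, chr14:56085198-56085447, minus strand: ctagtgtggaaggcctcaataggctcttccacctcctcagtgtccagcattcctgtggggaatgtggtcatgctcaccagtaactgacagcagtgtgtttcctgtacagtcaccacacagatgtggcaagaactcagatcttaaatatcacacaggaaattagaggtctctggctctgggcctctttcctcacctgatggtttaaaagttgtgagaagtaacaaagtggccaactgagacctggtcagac

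Mcpt1 and Mcpt4 had 207 of 246 aligned promoter bases in common (84.1%). GATAA on either strand occurred 1 time each in the windows of Mcpt1, Mcpt4, Cma1 and Cpa3 and not in those of Mcpt8 and Kit, and 22.6% of all 32851 mouse promoter windows of this length held it. CATGTG, a letter sequence bound by the transcription factor Mitf, was in none of the 6 windows and in 12.3% of all. A match of letters describes the window only.

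The genes most like each member in profile were ranked by Pearson's r over the same 10 tumors among all fitted genes. For Mcpt4 the nearest 5 were Tpsb2, Cma1, Cpa3, F13a1 (r = 0.963), which encodes a subunit of coagulation factor XIII, and Mrgprb1 (r = 0.955), a relative of the mast cell receptor Mrgprb2. F13a1 and Mrgprb1 were also among the nearest 5 of Cma1, Tpsb2 and Cpa3, Fcer1a was among those of Cma1 (r = 0.963) and Tpsb2 (r = 0.961), and Ang (r = 0.957) among those of Cpa3. For Mcpt2 the nearest were Olfml3 (r = 0.979), Chil3 (r = 0.946), Has2 (r = 0.943), Pkd1l3 (r = 0.938) and Sash1 (r = 0.934), and Mcpt1 came at place 21. Like Mcpt2, these 5 genes had positive log2 fold changes, from 0.25 for Sash1 to 1.80 for Chil3, so their likeness includes a difference between the groups. For Mcpt1 they were Stard9 (r = 0.951), Olfml3 (r = 0.930), Fam234b (r = 0.928), Csgalnact1 (r = 0.926) and Wdr86 (r = 0.917), with Mcpt2 at place 19. Olfml3, an extracellular matrix protein gene, was thus near both mucosal protease genes.

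For Kit the nearest genes were Dact1 (r = 0.981), Hes1 (r = 0.980), a target of Notch signaling, Col27a1 (r = 0.958), Lama4 (r = 0.956) and Slc2a10 (r = 0.956), none of them a mast cell protease, and Mcpt4 came at place 613. For Mcpt8 they were Vnn1 (r = 0.926), Ctsg (r = 0.856), Ctrl (r = 0.838), Pramel13 (r = 0.828) and Galnt18 (r = 0.821). These likenesses are picked from 13517 genes over 10 tumors and are given as a description.

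Ctsg, which encodes cathepsin G of neutrophil granules, is also the neighbor of Mcpt8 on chromosome 14, where the protease genes stand in the order Cma1, Cma2, Mcpt1, Mcpt9, Mcpt2, Mcpt4, Mcpt8, Ctsg and then 7 granzyme genes. Ctsg had 5.30, 5.61, 3.80, 11.8 and 1.48 FPKM in E1 to E5 and 8.47, 5.23, 4.47, 5.32 and 3.39 FPKM in NE1 to NE5. Like Mcpt8, it was highest in E4 and lowest in E5. Mcpt8 and Ctsg had r = 0.856 (permutation p = 0.0022, adjusted p = 0.012 over 104 relations) and rho = 0.806 (permutation p = 0.0065, adjusted p = 0.038), but r = 0.518 without E4 and E5, so the relation rests on those tumors. Gzmb, the granzyme of cytotoxic lymphocytes at the far end of the locus, had r = 0.767 with Mcpt8 (permutation p = 0.010, adjusted p = 0.037), rho = 0.673 (adjusted permutation p = 0.12) and r = 0.250 without E4 and E5.

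Along the locus the sign of r with Mcpt4 and with Mcpt8 differed between the genes on either side. On the Mcpt4 side, r with Mcpt4 was 0.997 for Cma1, 0.522 for Mcpt1 and 0.644 for Mcpt2, the last including its group difference. Of these only Cma1 passed, as the adjusted permutation p was 0.19 for Mcpt1 and 0.10 for Mcpt2. Without NE1, r with Mcpt4 was -0.144 for Mcpt1 and 0.232 for Mcpt2. Cma1, Mcpt1, Mcpt2 and Mcpt4 had r of -0.37 to -0.18 with Mcpt8. These negative values did not pass (smallest adjusted permutation p of 0.36) and turned with 1 tumor left out, to 0.283 for Mcpt2 and 0.047 for Mcpt1 without E5, and to 0.039 for Mcpt4 and 0.061 for Cma1 without NE1. On the Mcpt8 side, the fitted genes Ctsg, Gzme, Gzmd, Gzmg, Gzmf, Gzmc and Gzmb had r of 0.547 to 0.856 with Mcpt8 and of -0.61 to -0.30 with Mcpt4. With Mcpt4, Ctsg did not pass (adjusted permutation p = 0.44, rho = 0.030) and had r = -0.0073 without NE1 and NE3. Gzmb did not pass either (adjusted permutation p = 0.27, rho = -0.54) and had r = -0.24 without the same tumors. Relations of the other granzymes were not tested. None of the 7 fitted genes on the Mcpt8 side had a difference between E and NE that passed an unadjusted p of 0.05, with log2 fold changes from -0.15 for Gzmg to 0.045 for Gzmc.

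**Figure D5:**
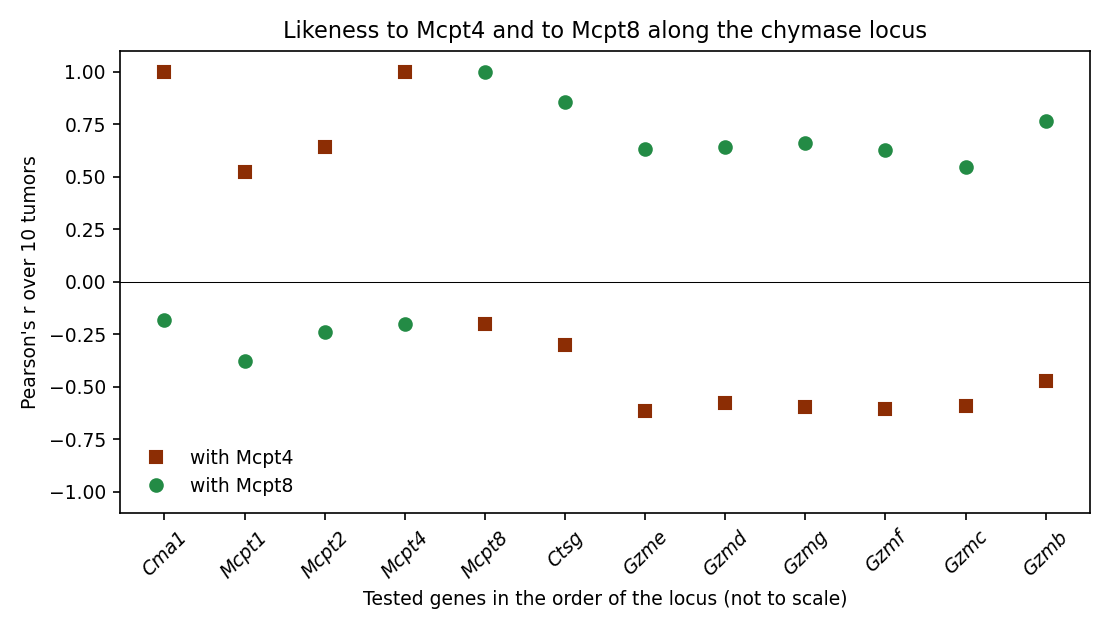
Pearson's r over 10 tumors of each fitted protease gene of the chromosome 14 locus with Mcpt4 (brown squares) and with Mcpt8 (green circles), in chromosomal order and not to scale. From Cma1 to Mcpt4 the squares are above 0 and the circles below, and from Mcpt8 to Gzmb the reverse. None of the values below 0 that were tested passed, and neither did those of Mcpt1 and Mcpt2 with Mcpt4. Values of Mcpt2 include its group difference.

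Other genes of mast cells and basophils were taken from 6 lists with 83 genes besides the 8, of which 71 were fitted. None was called, and at an unadjusted p of at most 0.05 1 was higher and 2 were lower in E, next to 2.57% and 2.29% of all fitted genes. Runx1, a hematopoietic transcription factor, had a log2 fold change of 0.18 with a standard error of 0.0748 (edgeR's quasi-likelihood test, unadjusted p = 0.032, Benjamini-Hochberg adjusted p = 0.90).

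The 2 lower genes were a receptor and a ligand of mast cells. Il1rl1, the receptor for interleukin 33, had 25.5, 15.1, 17.9, 16.4 and 18.1 FPKM in E1 to E5 and 34.5, 24.0, 27.4, 16.8 and 20.2 FPKM in NE1 to NE5. Kitl, which encodes stem cell factor, the ligand of Kit, had 13.6, 18.3, 22.6, 21.8 and 13.1 FPKM in E1 to E5 and 19.3, 27.1, 27.6, 18.9 and 25.1 FPKM in NE1 to NE5. In both genes the groups overlapped. The log2 fold change was -0.43 with a standard error of 0.188 for Il1rl1 (edgeR's quasi-likelihood test, unadjusted p = 0.046) and -0.43 with a standard error of 0.183 for Kitl (unadjusted p = 0.040), and for both the Benjamini-Hochberg adjusted p was 0.90.

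Il1rl1 ran opposite to the connective tissue proteases. Its r was -0.86 with Mcpt4 (permutation p = 0.00092, adjusted p = 0.0087, rho = -0.85, adjusted permutation p = 0.032) and -0.72 without NE1 and NE3. With Tpsb2, Cma1 and Cpa3 it was -0.88, -0.86 and -0.82, all at an adjusted permutation p of at most 0.0096. NE1, the tumor with the lowest Mcpt4, had the highest Il1rl1.

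Of the IgE receptor, the α chain followed the connective tissue proteases. Fcer1a, which encodes it, had 3.83, 5.75, 3.55, 7.24 and 5.93 FPKM in E1 to E5 and 0.781, 2.20, 2.51, 8.95 and 3.84 FPKM in NE1 to NE5, with NE1 lowest and NE4 highest as for Mcpt4. Fcer1a and Cma1 had r = 0.963 (permutation p = 2.0e-05, adjusted p = 0.0014), rho = 0.988 (adjusted permutation p = 0.0021) and r = 0.941 without NE1 and NE3. Ms4a2, the β chain, had r = 0.790 with Mcpt4 (permutation p = 0.0076, adjusted p = 0.034), but rho = 0.515 (permutation p = 0.13, adjusted p = 0.28) and r = 0.504 without NE1 and NE3, from 3 to 49 reads per tumor. With Mcpt8, the basophil gene, Fcer1a had r = -0.0044 (adjusted permutation p = 0.996). Among the 104 relations of the 8 genes with 13 fitted genes of these lists, 32 had an adjusted permutation p of at most 0.05 by Pearson's r.

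In the list of other proteases of the locus and the tryptase cluster, 9 of 13 genes were fitted, 4 with a positive and 5 with a negative log2 fold change around a median of -0.029, where all fitted genes had -0.014. Tpsab1, another tryptase gene, had the highest value of that list, 0.91 with a standard error of 0.474, and levels of 1.60, 2.87, 1.99, 2.81 and 3.78 FPKM in E1 to E5 and 0.207, 1.25, 1.60, 1.77 and 1.90 FPKM in NE1 to NE5. It was correlated with Tpsb2 by Pearson's r (r = 0.926, adjusted permutation p = 0.0097) but not by rank (rho = 0.721, adjusted permutation p = 0.0895). With Mcpt2 it had r = 0.868 and rho = 0.794 over all tumors, with the group differences of both genes included, and r = 0.682 without E5 and NE1. Prss34, a basophil tryptase, had 0 to 25 reads per tumor and was not fitted.

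Receptors were fitted in 12 of 12 cases, 9 above 0, with a median log2 fold change of 0.24. The IgE receptor chains Fcer1a and Ms4a2 had 0.46 with a standard error of 0.533 and 0.61 with a standard error of 0.622, and Mrgprb2, the receptor for basic secretagogues on connective tissue mast cells, had 0.52 with a standard error of 0.589. Transcription factors had a median of 0.031 over 9 fitted of 10, with Gata2 at 0.039 and Mitf, the regulator of mast cell granule genes, at 0.031. Granule and mediator genes had a median of 0.18 over 11 of 12, the highest being Hdc, the enzyme that makes histamine, at 1.21 with a standard error of 0.562 (edgeR's quasi-likelihood test, unadjusted p = 0.055, Benjamini-Hochberg adjusted p = 0.90).

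Hdc had 1.69, 2.04, 1.47, 3.49 and 10.1 FPKM in E1 to E5 and 0.793, 1.08, 1.33, 1.94 and 2.67 FPKM in NE1 to NE5. As with Mcpt1, Mcpt2 and Kit, E5 was highest and NE1 lowest. Cytokines had a median of 0.0996 over 10 fitted of 16, with Il33 at -0.47 with a standard error of 0.601 and Il4, a cytokine of mast cells and basophils, at -0.022. Genes of Kit signaling had a median of -0.0032 over 21 of 21, with 10 above and 11 below 0.

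Markers were checked for the cell types the tissue could hold. The 10 defining mast cell markers all had reads in every tumor, with a summed level of 138 to 291 CPM in E and 34.4 to 287 in NE, lowest in NE1. Of the 6 basophil markers 5 had reads in every tumor and Prss34 was at 0 in NE1, and their sum was 13.6 to 22.3 in E and 9.30 to 24.7 in NE. Fcer1a and Ms4a2 belong to both lists, and 5 of the 10 mast cell markers and 1 of the 6 basophil markers are among the 8 genes themselves. The basophil markers did not vary as 1 set. Mcpt8 had r of -0.44 with Il3ra, -0.24 with Cd200r3, -0.055 with Ms4a2 and -0.0044 with Fcer1a. Mcpt4 had r of 0.471, 0.941, 0.790 and 0.948 with the same genes in that order. Relations of Il3ra and Cd200r3 were not tested.

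The markers of 10 other cell types were set against the 8 genes by the mean log2(CPM + 0.5) over the genes of a list. Sums of CPM are given for the range only. The part of these cell types in the results above was not tested. Of 80 relations 11 had an adjusted permutation p of at most 0.05 by Pearson's r, 5 with the fibroblast list, 4 with the eosinophil list and 1 each of Kit with the neutrophil and the endothelial list. NE1 had the lowest sum in 6 of these 10 lists, and E5 and NE4 had the highest sum in 4 each. The 8 fibroblast markers all had reads in every tumor and summed to 2208 to 15456 CPM in E, highest in E5, and to 988 to 4990 in NE, lowest in NE1. Their mean log2 level was correlated with Mcpt4 (r = 0.873, permutation p = 0.00038, adjusted p = 0.0076 over 80 relations, rho = 0.867, adjusted permutation p = 0.035, and r = 0.915 without NE1 and E5). With Kit it had r = 0.936 (permutation p = 0.00023, adjusted p = 0.0076, rho = 0.867, adjusted permutation p = 0.035) and 0.820 without the same tumors. With Mcpt2, whose group difference is included, it had r = 0.768 (permutation p = 0.014, adjusted p = 0.064, rho = 0.394, adjusted permutation p = 0.50) and r = -0.015 without NE1 and E5.

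Of the 10 neutrophil markers 8 had reads in every tumor, with Camp and Ngp at 0 in some, and they summed to 92.5 to 541 in E, highest in E5, and 76.7 to 136 in NE. The 10 macrophage or monocyte markers all had reads in every tumor and summed to 1289 to 2389 in E and 632 to 2177 in NE, lowest in NE1. Of the 12 skeletal muscle markers 9 had reads in every tumor, with Myh4, Tnnc2 and Pvalb at 0 in some, and their sum ran from 9.98 in NE1 to 31223 in NE4, against 331 to 4346 in E. The 8 smooth muscle and pericyte markers summed to 98.0 to 335 in E and 48.8 in NE1 to 1016 in NE4. Of the 8 adipocyte markers 2 had reads in every tumor, with sums of 1.04 to 25.4 in E and 0.212 to 108 in NE. The 8 endothelial markers summed to 288 to 384 in E and 263 to 354 in NE, and of the 6 eosinophil markers 2 had reads in every tumor, with sums of 2.31 to 15.2 in E and 0.467 to 17.6 in NE. The mean log2 level of the eosinophil list had r of 0.773 to 0.798 with Mcpt4, Cma1, Tpsb2 and Cpa3 (adjusted permutation p = 0.042), with rho of 0.612 to 0.721 that did not pass (adjusted permutation p of at least 0.11) and r of 0.394 to 0.463 without NE1 and NE4. Of the 8 keratinocyte markers 2 and of the 6 melanocyte markers 1 had reads in every tumor, with sums of at most 6.25 outside NE5 (135) for the former and 0.326 to 1.21 for the latter. Without NE4, which was highest for muscle and for Mcpt4, Cma1, Tpsb2 and Cpa3, the log2 fold changes of these 4 genes were 0.87, 0.84, 0.97 and 0.62, and without NE1 they were 0.16, 0.092, 0.21 and -0.028.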

How the data were processed

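Total RNA of the tumors was made into paired-end TruSeq libraries, 1 per mouse. Per the study's methods the authors aligned reads with Hisat2 (version 2.0) and quantified genes with Stringtie (version 1.3.0). These methods name the genome Rnor 6.0, while the gene identifiers of the table are those of mouse, and the build behind its coordinates is not given in the sources used here. The deposited table holds, per gene and tumor, a read count and an FPKM. The deposited FPKM values equal the count divided by gene length and by the tumor's total count. Per-sample columns left unmapped numbered 0.

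The 8 genes and all gene and marker lists were chosen with earlier results of these data known. The deposited counts were fitted with edgeR (version 4.0.16, R 4.3.3) by quasi-likelihood with TMM scaling, filterByExpr and no block, since the methods section names none. A call needed a 2-fold or larger difference and a Benjamini-Hochberg false discovery rate no higher than 0.05, and standard errors were taken from the F statistic. The fit was tested on simulated data. DESeq2 (1.42.0) and limma (3.58.1) were alternatives. Correlations used log2(CPM + 0.5), with CPM the count scaled by the TMM-adjusted library size, with 100000 permutations, or exact enumeration with 1 tumor left out, and Benjamini-Hochberg adjustment over each family. Deviations from the group means were permuted across both groups without allowance for the means taken out, so their p-values can be too small. Levels used log2(FPKM + 0.1). Correlations with 13 pathway genes and with the mean log2(CPM + 0.5) of marker lists were added after the values had been seen.

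Genes named were the 8 genes, 14 pathway genes listed by name, in each pathway list the gene with the largest difference at an unadjusted p of at most 0.05, and for each of the 8 the 5 fitted genes of highest r. The lowest and highest fitted log2 fold changes of a list, and Il3ra and Cd200r3, were named outside this rule, after their values were seen. Replicate numbers were shared between groups, but tumors of the same number did not deviate together (r from -0.30 to 0.32), so tumors were not treated as pairs. The study's results speak of matched pairs, while its methods describe random division into groups, and values with the number as a block stand with the alternatives. Each tumor came from a separate mouse. Depth was 15045613 to 23092251 counted reads, and a count of 3 reads was 0.199 CPM in the shallowest tumor. Reads carried no molecular identifiers. Transcript sequences came from GENCODE on GRCm38 and promoters from RefSeq on GRCm38.p6.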

Additional observations from a re-analysis of the deposited data

Results flagged for a closer look

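In 46 groups of 5 values, tested with Dixon's criterion for a tumor far from the other 4 of its group, 5 were marked, where chance marks about 1 in 20, or 2.3. Mcpt1 in E5 (12.5 FPKM), Hdc in E5 (10.1 FPKM) and Mrgprb2 in E5 (2.24 FPKM) lay far above the other exercised tumors, so 3 of the 5 values belong to this tumor, which also had the smallest number of counted reads, 15045613. Il1rl1 in E1 (25.5 FPKM) lay above the other exercised tumors, which had 15.1 to 18.1 FPKM. Prss34 in E3 (0.0795 FPKM) lay below the others of its group, at a level of few reads.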

How the results depend on the processing

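No gene met both limits of a call under any alternative run with the false discovery rate, and 56 differed 2-fold or more with an unadjusted p at or below 0.05. With DESeq2 the smallest false discovery rate was 0.00045, at a difference below 2-fold, and in the main fit it was 0.90. With the replicate block edgeR called 0 genes, with 714 instead of 657 at an unadjusted p of at most 0.05, and 7 instead of 3 genes of the pathway lists, which were 6 with DESeq2 and 0 to 6 with 1 tumor left out. Under the replicate block, which matters if the tumors were matched, the log2 fold changes of Mcpt4, Cma1, Tpsb2 and Cpa3 were 0.83, 0.73, 0.85 and 0.59, and that of Mcpt2 1.60. Leaving out NE1, E5 or NE3 gave 1350, 372 and 400 genes at an unadjusted p of at most 0.05. The number of correlated pairs among the 8 genes was 12, and 7 to 13 when 1 tumor was left out, with 7 without E3, E4, NE1 or NE3. The 13 without NE4 shared 8 with the 12, lost Kit with Mcpt4, Cma1, Cpa3 and Tpsb2, and gained Mcpt2 with those 4 genes and Mcpt1 with Kit. The gained pairs of Mcpt2 hold its group difference. The 6 pairs of Mcpt4, Cma1, Tpsb2 and Cpa3 and the pair of Mcpt1 and Mcpt2 passed in all 15 alternatives. Of these alternatives, only the deviations from the group means leave out the group difference of Mcpt2. The cause was not tested. The same 4 separations of neighboring levels passed in the same direction in all 11 alternatives of pseudocount and left-out tumor, with Mcpt8 above Kit added without E5 (5 in all), and 4 passed with GENCODE transcript lengths. Depth limits Mcpt8, Mcpt1, Ms4a2 and Prss34, which had as few as 23, 16, 3 and 0 reads in a tumor.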
